A study of Mus musculus with 16 samples.

Results

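Myelin genes of mature oligodendrocytes were followed in the hippocampus of 16 mice. They are the 9 genes of the deposited count table named Mbp, Mog, Mag, Mobp, Cnp, Opalin, Ermn, Cldn11 and Ugt8a, out of 55335 genes in the table. All 9 were among the 16475 genes with enough reads to be tested. The mice were females, 10 months old per the labels, with 4 mice in each of 4 groups. WT mice carried the strain label C57BL/6J x 129S1. 3xTg mice carried the label B6;129-Psen1tm1MpmTg(APPSwe,tauP301L)1Lfa/Mmjax, an Alzheimer's disease model with a mutant presenilin 1 knock-in allele and human APP and tau transgenes that a neuronal Thy1.2 element drives, so that the transgenes are not aimed at oligodendrocytes. All 16 mice had a cannula in the brain and an osmotic pump for 28 days. WT-D and 3xTg-D mice received the vehicle, 0.8% DMSO in artificial cerebrospinal fluid. WT-S and 3xTg-S mice received an inhibitor of stearoyl-CoA desaturase (SCD) at 80 µM in the same vehicle. The treatment labels call it Cayman 10566, CAY10566 in the study, whereas the infusion protocol attached to every sample gives ab142089. The comparisons address how the 3xTg genotype, the inhibitor in each genotype, and both together were associated with the expression of these genes, and whether the treated 3xTg mice differed from vehicle-infused WT mice.

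Oligodendrocytes wrap axons in myelin, a stack of lipid-rich membrane that insulates the axon. The proteins of the stack are laid down in separate places: MBP and MOBP between the cytoplasmic faces of compact myelin, CNP in the cytoplasmic channels, MAG on the inner layer that faces the axon, MOG on the outermost layer, and claudin 11, the product of Cldn11, in the tight junctions along the edges of the wraps. SCD makes monounsaturated fatty acids, which are a large share of the fatty acids of myelin lipids. The mRNAs of Mbp and Mobp are carried out of the cell body into the processes, and their proteins are made beside the sheath.

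The DNA before the start of each gene is shown for 5 of the 6 genes that passed the test in at least 1 comparison. The windows come from RefSeq on GRCm38.p6 and were taken for 8 of the 9 genes, with Mbp left out of the search. They run 5′ to 3′ toward the gene on its own strand and stop at the gene's first base in the count table. Capitals mark 2 short words, ACAAAG (or its reverse complement CTTTGT), the core that SOX factors such as SOX10 bind, and CTGGCAC (or GTGCCAG), the core of the motif of MYRF, a transcription factor that turns on myelin genes.
Mobp, chr9:120149492-120149706, plus strand: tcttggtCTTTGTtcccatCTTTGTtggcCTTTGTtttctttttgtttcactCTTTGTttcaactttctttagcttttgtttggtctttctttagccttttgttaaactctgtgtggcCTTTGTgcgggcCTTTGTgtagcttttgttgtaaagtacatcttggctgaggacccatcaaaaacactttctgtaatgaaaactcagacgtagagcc
Mag, chr7:30914874-30915113, minus strand: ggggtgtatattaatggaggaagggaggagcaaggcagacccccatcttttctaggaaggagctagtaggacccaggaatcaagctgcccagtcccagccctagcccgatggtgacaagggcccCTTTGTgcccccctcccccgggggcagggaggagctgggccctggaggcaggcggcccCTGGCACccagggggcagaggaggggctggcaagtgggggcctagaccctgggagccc
Cnp, chr11:100574689-100574903, plus strand: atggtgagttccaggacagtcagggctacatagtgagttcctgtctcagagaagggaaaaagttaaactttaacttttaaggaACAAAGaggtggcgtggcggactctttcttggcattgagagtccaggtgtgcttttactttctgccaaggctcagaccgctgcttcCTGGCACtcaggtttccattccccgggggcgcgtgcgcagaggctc
Mog, chr17:37023399-37023648, minus strand: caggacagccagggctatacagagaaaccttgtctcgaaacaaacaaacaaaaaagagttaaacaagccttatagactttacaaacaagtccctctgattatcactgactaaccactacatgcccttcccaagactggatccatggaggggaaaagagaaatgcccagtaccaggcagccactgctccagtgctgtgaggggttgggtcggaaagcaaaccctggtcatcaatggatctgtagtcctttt
Cldn11, chr3:31149670-31149919, plus strand: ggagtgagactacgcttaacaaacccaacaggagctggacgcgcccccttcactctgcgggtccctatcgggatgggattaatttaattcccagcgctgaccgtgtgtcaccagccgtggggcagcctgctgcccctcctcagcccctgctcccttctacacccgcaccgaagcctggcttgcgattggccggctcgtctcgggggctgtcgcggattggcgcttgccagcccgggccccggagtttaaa
The Mobp window held 6 copies of the SOX core, and it was the only 1 of 32851 RefSeq windows with 6 or more. The SOX core was present in 4 of the 8 windows, those of Mobp, Mag, Cnp and Opalin, against 16.5% of all windows, and 1.74% of all windows held it 2 or more times. The MYRF core was present in 2 of the 8, Mag and Cnp, against 4.19% of all windows. Neither word was found in the windows of Mog, Cldn11, Ermn and Ugt8a. An E-box (CAGCTG) was present in 13.0% of all windows and a TATA word (TATAAA or TTTATA) in 12.4%, and neither was present in any of the 8. The words do not overlap each other, and a match to so short a word is a description of the letters in the window.

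All 9 genes are protein-coding, and their positions in the table matched those in Gencode M21 on GRCm38. Mbp lies on chromosome 18 (82475146 to 82585637, plus strand). Mog lies on chromosome 17 (37010743 to 37023398, minus strand), Mag on chromosome 7 (30899176 to 30914873, minus), Mobp on chromosome 9 (120149707 to 120181484, plus) and Cnp on chromosome 11 (100574904 to 100591729, plus). Opalin lies on chromosome 19 (41061710 to 41077113, minus), Ermn on chromosome 2 (58045113 to 58052864, minus), and Cldn11 and Ugt8a on chromosome 3 (31149920 to 31164324, plus, and 125865271 to 125938619, minus). The exons of Cnp share 154 bases with Dnajc7 and those of Ermn share 237 bases with Galnt5, each on the opposite strand, and those of Mobp share 79 bases with Gm38642 on the same strand. The strand setting of the counting is not given in the sources used here, so reads on those shared bases cannot be assigned to a gene with certainty.

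Reads on genes numbered 15413385 to 23590149 per mouse. The share of reads that fell outside annotated genes ranged from 7.82% to 15.1% and was highest and lowest in 3xTg-S mice. Mbp, the most abundant of the 9 genes, was at 1323 CPM (read counts scaled by library size) or more in every mouse, and Opalin, the lowest, at 3.60 to 27.6 CPM. Choroid plexus, a neighboring tissue, was present in unequal amounts. Ttr, its most abundant transcript, ranged from 1.82 to 638 CPM in WT-D and from 2.57 to 246 in WT-S mice, and from 1.36 to 13.3 in 3xTg-D and from 0.756 to 5.06 in 3xTg-S mice. Values below are CPM with edgeR's TMM factors, given for mice 1 to 4 of each group. Log2 fold changes are of the second group over the first, each with its standard error (SE), from edgeR's quasi-likelihood test (two-sided) on the 8 mice of the 2 groups. A gene was called where its unadjusted p was 0.01 or lower, and the adjusted p given beside it is Benjamini-Hochberg's over all 16475 tested genes. The labels do not say more on how the mice of a group were separated by litter or day, so the tests measure the spread between these mice.

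Mbp encodes myelin basic protein, which holds the cytoplasmic faces of compact myelin together. Its 4 WT-D values were 1829.9, 1662, 1899 and 1983 CPM. The 3xTg-D values were 2569.6, 3002, 2209.8 and 2579.6 CPM. All 3xTg-D mice were above all WT-D mice, and the 3xTg-D mean was 2590 ± 324 (SD, n = 4) against 1843 ± 136. The WT-S values were 1836, 2078, 1889.8 and 1323 CPM. The 3xTg-S values were 1874, 2842, 1924 and 1703 CPM. The treated groups overlapped each other and WT-D. Of the 3xTg-S mice, 3 lay below all 3xTg-D mice and mouse 2 lay among them.

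Mobp encodes another small basic protein of compact myelin. Its WT-D values were 837, 762, 804 and 938 CPM, and the 3xTg-D values were 1099.6, 1192, 995 and 1099 CPM. As for Mbp, the 2 vehicle groups did not overlap. The WT-S values were 1029, 981, 849 and 607 CPM. The 3xTg-S values were 862, 1319, 786 and 722 CPM, where mouse 2 was above every other mouse of the study and the other three were below every 3xTg-D mouse.

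Cnp encodes an enzyme-like protein that keeps the cytoplasmic channels of the sheath open. It was measured at 254, 196, 215 and 231 CPM in WT-D and at 285, 231, 233 and 232 CPM in 3xTg-D mice, which overlapped. In WT-S mice Cnp was at 237, 250.1, 177 and 152 CPM. In 3xTg-S mice it was at 191, 215, 154 and 164 CPM, all below every 3xTg-D mouse. Mag, the adhesion molecule of the innermost layer, was at 118, 88.1, 99.6 and 112 CPM in WT-D mice. It was at 128, 87.6, 98.0 and 109.7 CPM in 3xTg-D and at 96.9, 99.8, 71.7 and 72.3 CPM in WT-S mice. Mag values in 3xTg-S mice were 79.6, 83.7, 68.5 and 83.6 CPM, and all 4 lay below all mice of both vehicle groups.

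Mog, the immunoglobulin-like protein of the outermost layer and a late marker of oligodendrocyte maturation, was at 52.3, 43.8, 50.6 and 50.04 CPM in WT-D mice. The 3xTg-D values of Mog were 53.7, 46.5, 42.2 and 42.6 CPM, which overlapped WT-D on both sides. The WT-S values, 54.6, 58.0, 42.8 and 31.0 CPM, spanned nearly the whole range of the study. The 3xTg-S values were 39.0, 42.4, 28.4 and 30.0 CPM, all below the WT-D mice, with the highest, mouse 2, overlapping the lowest 3xTg-D mice. Opalin, a transmembrane glycoprotein of the sheath, was the lowest and most variable of the 9, at 27.6, 16.3, 14.0 and 21.0 CPM in WT-D and 21.2, 17.2, 10.9 and 10.4 CPM in 3xTg-D mice. Opalin was at 20.6, 25.1, 11.6 and 12.3 CPM in WT-S and 14.5, 10.5, 3.60 and 9.56 CPM in 3xTg-S mice, and no pair of groups was free of overlap.

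Cldn11, which forms the tight junctions of the sheath, was at 145, 111, 129 and 129 CPM in WT-D mice. It was at 151, 137, 144 and 155 CPM in 3xTg-D mice, at 129, 122, 102 and 82.9 CPM in WT-S and at 109, 143, 109.9 and 100.4 CPM in 3xTg-S mice, where 3 of 4 were below every 3xTg-D mouse. Ermn encodes ermin, a cytoskeletal protein of the myelinating cell. Its values were 128, 121, 115 and 133 CPM in WT-D and 138, 144, 125 and 151 CPM in 3xTg-D mice. In WT-S and 3xTg-S mice Ermn was at 133, 116, 129 and 85.1 CPM and at 117, 148, 86.6 and 93.8 CPM. Ugt8a, the enzyme that makes galactosylceramide, a hallmark lipid of myelin, was at 73.2, 59.0, 48.9 and 71.4 CPM in WT-D and 69.6, 66.2, 67.7 and 80.7 CPM in 3xTg-D mice. Its WT-S and 3xTg-S values were 75.0, 60.9, 52.2 and 49.98 CPM and 64.4, 67.9, 43.4 and 63.7 CPM, and all 4 groups of Ugt8a overlapped.

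**Figure D1:**
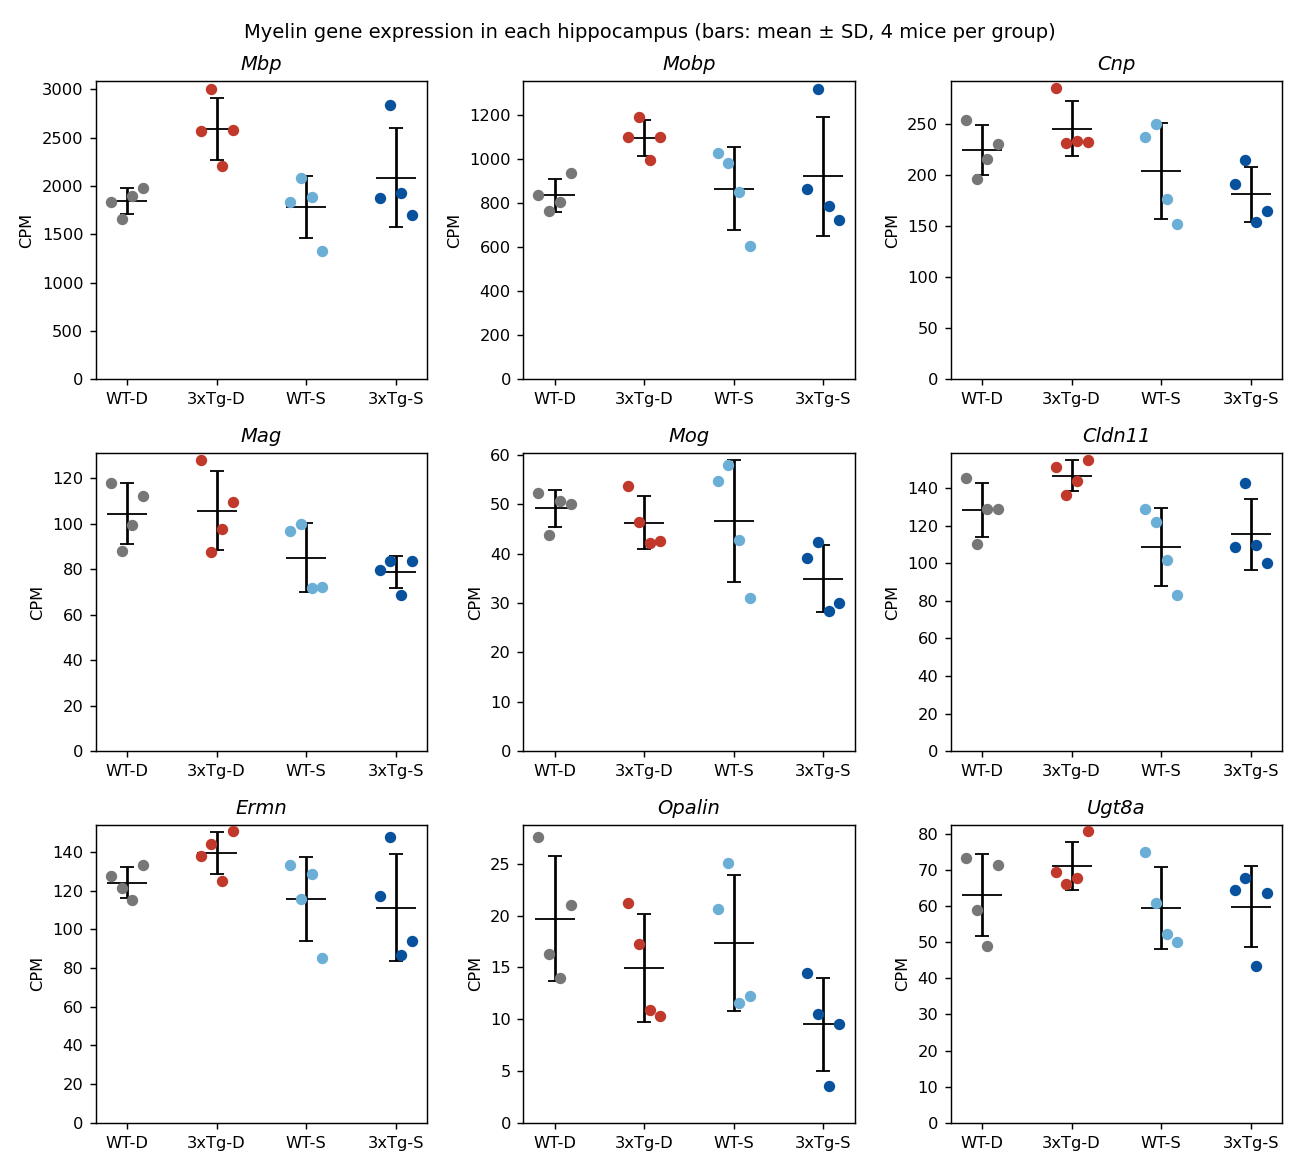
CPM of each of the 9 genes (y axes, from 0) in each mouse (points), by group (x axes), with the mean and SD of the 4 mice. Mbp and Mobp were higher in every 3xTg-D mouse than in every WT-D mouse, and Mag and Cnp were lower in every 3xTg-S mouse than in every 3xTg-D mouse.

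The levels of the 9 genes kept a single order in all 4 groups when CPM was divided by the length of each gene's exons in kilobases. In WT-D mice Mbp was at 218 ± 16.1 (SD, n = 4) CPM per kilobase, Mobp at 122 ± 10.9, Cldn11 at 68.7 ± 7.63, Cnp at 61.6 ± 6.70, Ermn at 34.2 ± 2.15, Mog at 28.9 ± 2.20, Mag at 25.7 ± 3.28, Ugt8a at 13.9 ± 2.51 and Opalin at 6.69 ± 2.04. Cldn11 and Cnp overlapped in every group, as did Mog and Mag, so these neighbors were not separated. Ermn and Mog overlapped in WT-S and 3xTg-S mice only. The other neighbors did not overlap in any group. In 3xTg-D mice Mbp was at 306 ± 38.3 and Opalin at 5.07 ± 1.77 CPM per kilobase.

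In WT-D vs 3xTg-D, the transcripts of the 2 small basic proteins of compact myelin, Mbp and Mobp, were higher in vehicle-infused 3xTg mice, whereas none of the other 7 genes passed the test. Mbp rose by 0.49 on the log2 scale (SE 0.09, p 0.000248, adjusted p 0.0214) and Mobp by 0.39 (SE 0.08, p 0.000354, adjusted p 0.0275). Thus 2 of the 9 genes were called, both higher, where 2.44% of all tested genes were called higher and 4.91% in either direction. Both were also among the 1.85% of genes with an adjusted p of 0.05 or less, which neither was with the choroid plexus score described below as a covariate (adjusted p 0.0802 and 0.0541). With all 16 mice in 1 fit, Mobp was not called (0.39, p 0.034). No member was lower, where 2.47% of genes were called lower. Mbp and Mobp were the 2 members without overlap between the groups, where 4.39% of all genes were higher and 3.78% lower without overlap. In bulk tissue, fewer cells of a type and less RNA per cell cannot be told apart, and the same holds for more.

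The other 7 genes spanned log2 fold changes from −0.40 to 0.19. Cldn11 (0.19, SE 0.08, p 0.0366, adjusted p 0.348) and Ermn (0.17, SE 0.07, p 0.0331, adjusted p 0.335) had positive log2 fold changes that did not pass the test. Ugt8a was at 0.17 (SE 0.12, p 0.191) and Cnp at 0.13 (SE 0.09, p 0.185). Mag was at 0.02 (SE 0.12, p 0.882), with a 95% interval of −0.25 to 0.29. Mog was at −0.09 (SE 0.09, p 0.329), and the upper end of its interval, 0.10, lay below the lower ends for Mbp and Mobp, 0.29 and 0.23. Opalin was at −0.40 (SE 0.26, p 0.152). The median of the 9 log2 fold changes was 0.17, and that of all tested genes was 0 to 2 decimals.

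**Figure D2:**
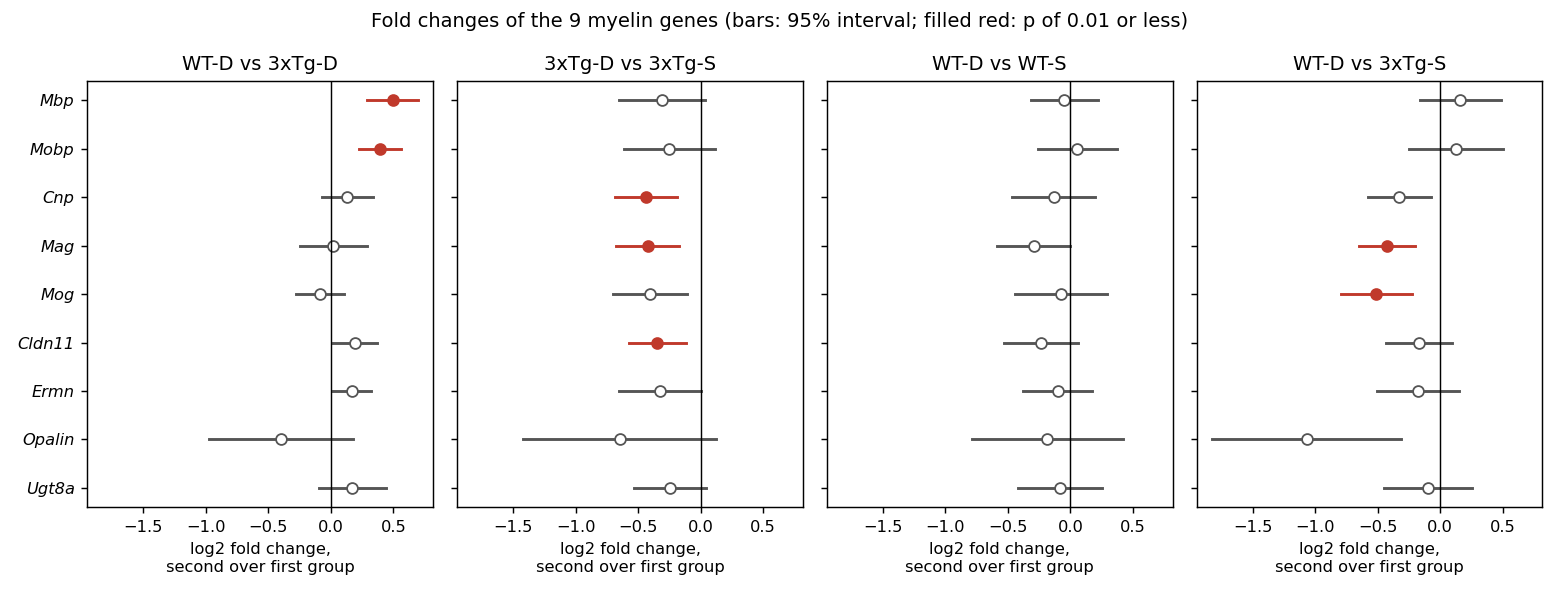
Log2 fold change of each of the 9 genes (rows) with its 95% interval (bars) in 4 comparisons (panels, named first group vs second), with calls at a p of 0.01 or less filled in red. In WT-D vs 3xTg-D Mbp and Mobp were called higher, in 3xTg-D vs 3xTg-S all 9 points lie below 0 with Cnp, Mag and Cldn11 called, in WT-D vs WT-S none was called, and in WT-D vs 3xTg-S Mag and Mog were called lower.

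Ratios of 2 genes within a mouse do not depend on the library size. These ratios were chosen after the values were seen and are given as a description, with no test. The log2 ratio of Mbp to Mog was 5.13 to 5.31 in WT-D mice and 5.58 to 6.01 in 3xTg-D mice. It was 5.07 to 5.46 in WT-S mice and 5.59 to 6.08 in 3xTg-S mice. In this ratio all 8 3xTg mice lay above all 8 WT mice. Of the 36 ratios between 2 of the 9 genes, 3 kept the genotypes apart in this way, those of Mbp, Mobp and Cldn11 to Mog. Of all other tested genes, 0.473% had a ratio to Mog that was higher in every 3xTg than in every WT mouse, and 0.395% one that was lower. The means were 5.23 ± 0.0749 (SD, n = 4) and 5.28 ± 0.191 in WT-D and WT-S mice, and 5.81 ± 0.197 and 5.89 ± 0.235 in 3xTg-D and 3xTg-S mice. The log2 ratio of Mobp to Mog was likewise 3.99 to 4.23 in WT-D and 4.08 to 4.31 in WT-S mice, and 4.36 to 4.69 in 3xTg-D and 4.46 to 4.96 in 3xTg-S mice. The ratio of Mbp to Mobp, the 2 transcripts that are carried to the sheath, overlapped among all groups, with means of 1.14 ± 0.0679 and 1.05 ± 0.145 in WT-D and WT-S, and of 1.23 ± 0.0745 and 1.19 ± 0.0900 in 3xTg-D and 3xTg-S mice. The ratio of Mbp to Opalin overlapped between the genotypes as well, at 6.05 to 7.08 in WT-D and 6.37 to 7.35 in WT-S mice, and at 6.92 to 7.96 in 3xTg-D and 7.02 to 9.06 in 3xTg-S mice.

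**Figure D3:**
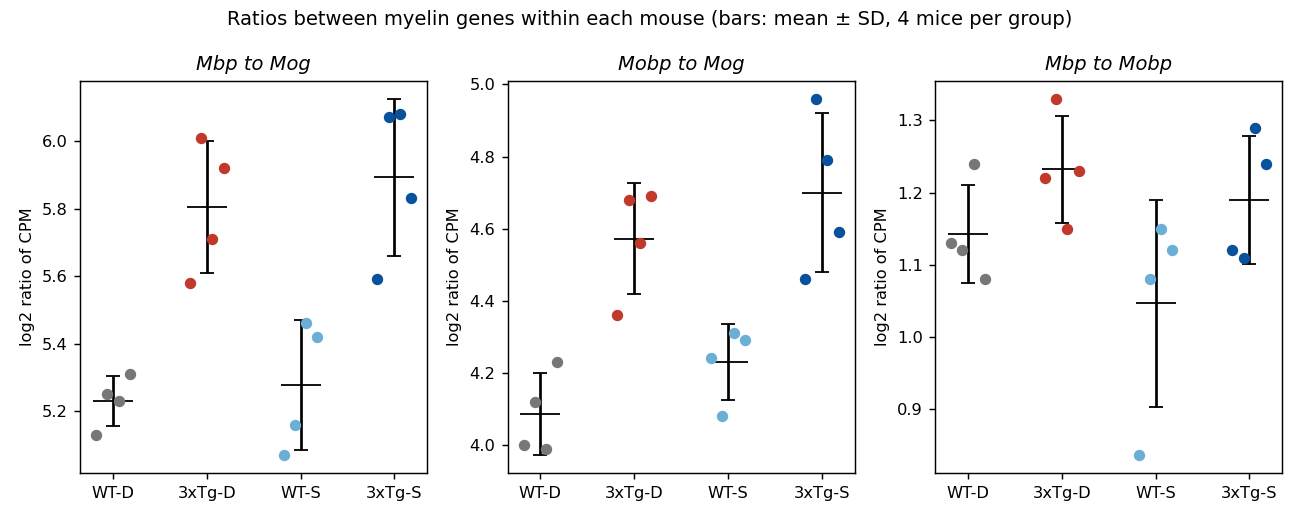
Log2 ratio of the CPM of 2 genes within each mouse (y axes, which do not start at 0; points are mice, with the mean and SD of 4) by group (x axes). The 8 WT mice and the 8 3xTg mice do not overlap in the ratios of Mbp to Mog and of Mobp to Mog, and they do overlap in the ratio of Mbp to Mobp.

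Other genes of myelin were taken from lists of known roles. Among 31 other proteins of the sheath and its junctions, 2 were called higher and 1 lower in WT-D vs 3xTg-D, with a median log2 fold change of 0.10. Anln, an actin- and septin-binding protein, rose by 0.53 (SE 0.12, p 0.00143, adjusted p 0.0649). Ninj2, an adhesion molecule, fell by 0.98 (SE 0.22, p 0.00109, adjusted p 0.0552). Of 15 enzymes that make myelin lipids, 2 were called higher and none lower, Hmgcs1 (0.36, SE 0.09, p 0.0023, adjusted p 0.0874) and Cyp51 (0.32, SE 0.08, p 0.00248, adjusted p 0.0915), both of cholesterol synthesis.

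Transcription factors of oligodendrocytes were listed as well, and their control of the 9 genes was not tested. Of 9 oligodendrocyte transcription factors tested, 2 were called lower and none higher in WT-D vs 3xTg-D, and 8 of 9 had negative log2 fold changes. Olig2, a lineage factor of precursors and oligodendrocytes, fell by 0.51 (SE 0.14, p 0.00343, adjusted p 0.110), and St18, a zinc finger factor, fell by 0.22 (SE 0.06, p 0.00238, adjusted p 0.0894). Myrf was at −0.14 (SE 0.09, p 0.169) and Sox10 at −0.05 (SE 0.09, p 0.581). Of 8 genes of newly formed oligodendrocytes 1 was called, Enpp6, which rose by 0.68 (SE 0.18, p 0.00308, adjusted p 0.103). Of 8 genes of oligodendrocyte precursors, 1 was called, Olig2 again, and Pdgfra, which marks precursors, was at 0.03 (SE 0.09, p 0.736).

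Of the genes of other cell types, those of vessels and choroid plexus included called members in WT-D vs 3xTg-D. None of 10 neuronal, 8 astrocyte or 8 microglial genes was called, with median log2 fold changes of −0.05, 0.19 and 0.26, the last 2 above the 0.17 of the 9 myelin genes. All 8 astrocyte genes, 3 of them with an unadjusted p under 0.05, and 7 of the 8 microglial genes had positive log2 fold changes. Endothelial genes had 2 of 8 called lower, Vwf (−0.85, SE 0.18, p 0.000899, adjusted p 0.0492) and Itm2a (−0.29, SE 0.09, p 0.00772, adjusted p 0.177). Of 5 choroid plexus genes tested, 1 was called lower, Ttr (−4.89, SE 1.49, p 0.00796, adjusted p 0.178). The summed CPM of those 5 ranged from 29.7 to 725 in WT-D and from 30.3 to 48.6 in 3xTg-D mice. With a choroid plexus score as a covariate, 2 members were again called, where 1.91% of all genes were called higher. The summed CPM of the 8 astrocyte genes ranged from 5868 to 6560.1 in WT-D and from 6196 to 8342 in 3xTg-D mice, and that of the 8 microglial genes from 359.8 to 619 and from 429.7 to 781. None of 6 genes of the neighboring thalamus and none of 3 genes of peripheral myelin was called. The part of these cell types in the result was not tested.

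**Figure D4:**
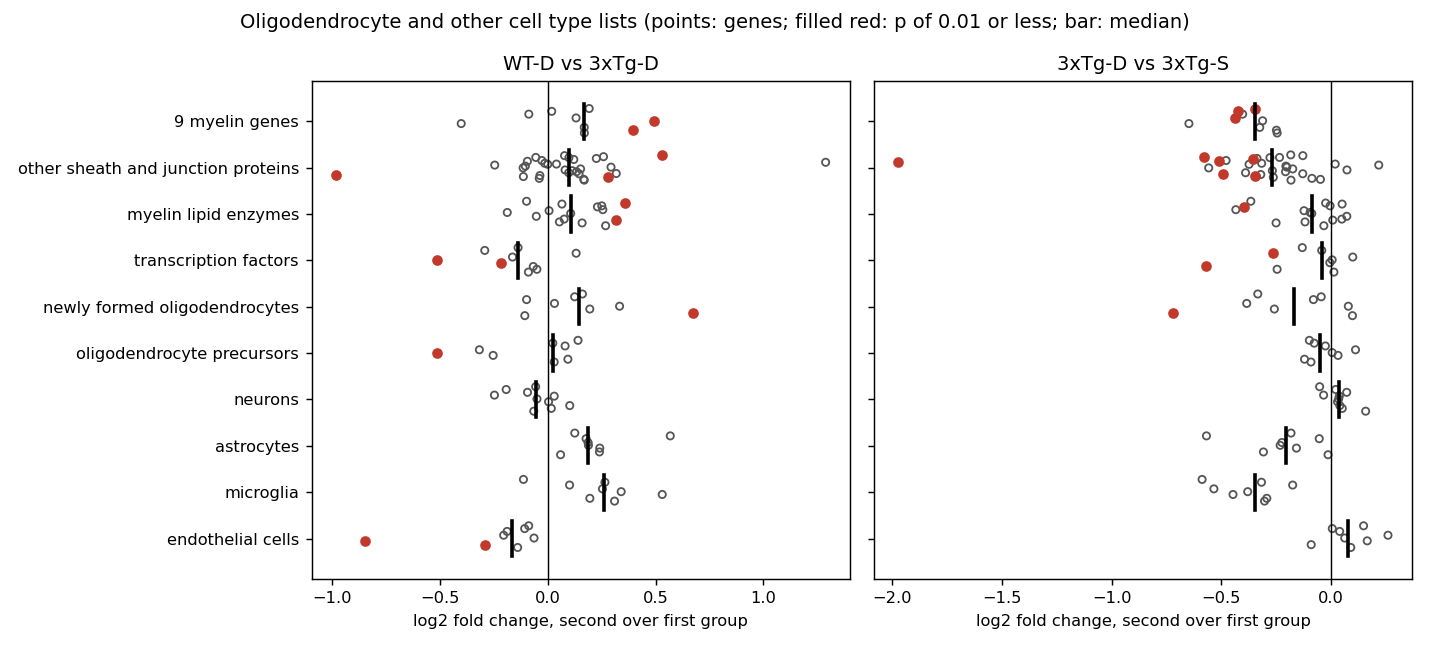
Log2 fold change (x axes) of each gene (points) of the 9 myelin genes and of 9 lists (rows), with the median of each list (bars) and calls at a p of 0.01 or less in red, in WT-D vs 3xTg-D (left) and 3xTg-D vs 3xTg-S (right). In 3xTg-D vs 3xTg-S the median of the 9 genes was −0.35 and that of 31 other sheath and junction genes −0.27, beside −0.35 for microglial, −0.20 for astrocyte and 0.04 for neuronal genes.

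In 3xTg-D vs 3xTg-S, where the inhibitor was compared with vehicle in 3xTg mice, all 9 genes had negative log2 fold changes, and 3 were called lower. Cnp fell by 0.44 on the log2 scale (SE 0.11, p 0.0027, adjusted p 0.722), from 245 ± 26.6 (SD, n = 4) to 181 ± 27.2 CPM. Mag fell by 0.42 (SE 0.11, p 0.00381, adjusted p 0.722), from 106 ± 17.4 to 78.8 ± 7.13 CPM. Cldn11 fell by 0.35 (SE 0.10, p 0.00743, adjusted p 0.722), from 147 ± 8.21 to 115 ± 18.8 CPM. Over all tested genes 0.625% were called lower and 0.904% in either direction. In this fit the adjusted p stayed above 0.05 for every gene, although 6.33% had an unadjusted p under 0.05. With the replicate number as a block, 1.24% of all genes had an adjusted p of 0.05 or less. Cnp and Mag were the members without overlap between the groups, where 1.76% of all genes were lower without overlap.

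The other 6 genes did not pass the test. Mog was at −0.40 (SE 0.13, p 0.0124), Ermn at −0.33 (SE 0.15, p 0.051), Mbp at −0.31 (SE 0.16, p 0.0712) and Mobp at −0.25 (SE 0.17, p 0.162). Ugt8a was at −0.25 (SE 0.13, p 0.0844) and Opalin at −0.65 (SE 0.35, p 0.0912), with adjusted p of 0.722 to 0.73 among the 6. The median of the 9 was −0.35, where the median of all tested genes was 0.00694. Mbp and Mobp, called higher in WT-D vs 3xTg-D, were not called here, and Cnp and Mag, called here, had not been called there. No test compared the genes with each other, so these calls do not separate them. The 2 comparisons share the 3xTg-D mice.

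Single mice moved these calls. 3xTg-S mouse 2 had the highest value of its group for 8 of the 9 genes, all but Opalin. It also had the lowest share of reads outside genes in the study, 7.82%, against 12.8%, 12% and 15.1% in the other 3xTg-S mice. Without it 7 of the 9 genes were called lower, all but Opalin and Ugt8a, where 1.41% of all genes were called lower. Without 3xTg-D mouse 1, which had the highest Cnp and Mag of its group, 1 was called (Cnp), and without 3xTg-S mouse 3, the lowest of its group for 6 genes, 1 was called (Cnp again), where 0.346% and 0.449% of all genes were called lower. With the choroid plexus score as a covariate 1 was called (Mag), where 0.346% were called lower. Across the fits that left out 1 mouse, all 9 log2 fold changes stayed negative, from −0.53 to −0.36 for Cnp, from −0.52 to −0.32 for Mag and from −0.47 to −0.29 for Cldn11.

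**Figure D5:**
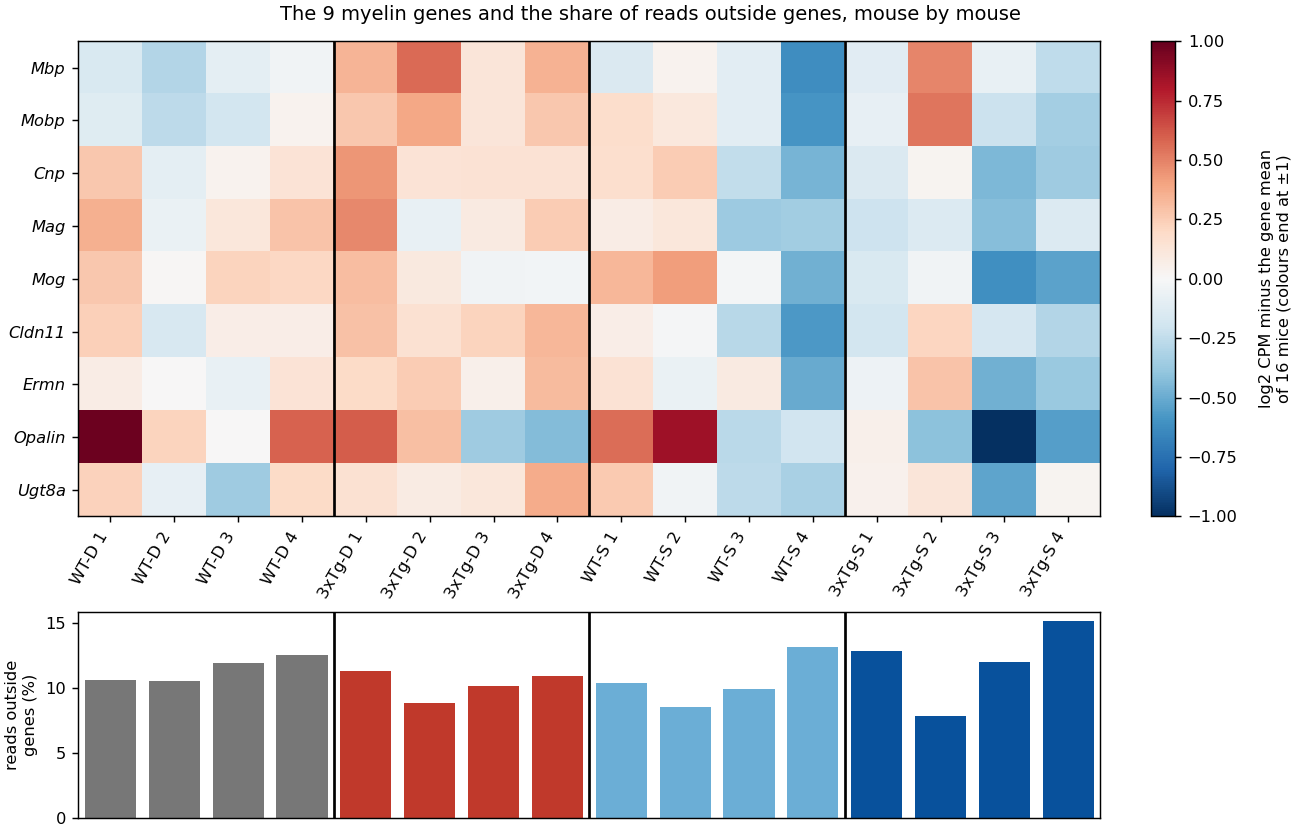
Log2 CPM of each of the 9 genes in each mouse minus the gene's mean over 16 mice (colors, with the scale ending at 1 in either direction), above the percentage of reads outside annotated genes in the same mouse (bars). WT-S mouse 4 and 3xTg-S mice 3 and 4 are low in most genes, and 3xTg-S mouse 2, with the lowest share of reads outside genes (7.82%), is the highest 3xTg-S mouse in 8 of 9.

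Other oligodendrocyte genes in 3xTg-D vs 3xTg-S were mostly on the same side. Of 31 other sheath and junction proteins, 28 had negative log2 fold changes, 6 were called lower and none higher, and their median was −0.27. Without 3xTg-S mouse 2, 18 were called lower. The 4 with the smallest p were Trf, the iron carrier transferrin (−0.49, SE 0.11, p 0.000818), Gsn, the actin-severing protein gelsolin (−0.36, SE 0.09, p 0.00233), Ppp1r14a, an inhibitor of myosin phosphatase (−0.51, SE 0.15, p 0.00556), and Klk6, a protease of mature oligodendrocytes (−1.97, SE 0.59, p 0.00684). Each had an adjusted p of 0.722. Trf went from 299.9 ± 32.8 (SD, n = 4) to 213 ± 27.2 CPM, and Klk6, at low counts, from 2.95 ± 2.45 to 0.764 ± 0.154 CPM.

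Some genes of the other, shorter oligodendrocyte lists were also called in 3xTg-D vs 3xTg-S, where 0.625% of all tested genes were called lower. Of 15 lipid enzymes 1 was called lower, Fa2h (−0.40, SE 0.13, p 0.00938), which makes the hydroxylated fatty acids of myelin, and the median was −0.09. Of 9 transcription factors 2 were called lower, Sox8 (−0.26, SE 0.07, p 0.00296) and Nkx6-2 (−0.57, SE 0.18, p 0.00971), whereas Sox10 was at −0.25 (SE 0.09, p 0.0186) and Myrf at −0.13 (SE 0.09, p 0.161). Enpp6, the marker of newly formed oligodendrocytes, was the 1 of 8 called (−0.72, SE 0.19, p 0.00368), and its mean of 14.9 ± 3.40 CPM in 3xTg-D mice was followed by 9.12 ± 2.005 in 3xTg-S mice, near the 9.37 ± 1.54 of WT-D. No gene of precursors was called, with Pdgfra at −0.09 (SE 0.08, p 0.301). No gene of neurons, astrocytes, microglia, endothelial cells, choroid plexus, peripheral myelin or thalamus was called. All 8 astrocyte and all 8 microglial genes had negative log2 fold changes, with medians of −0.20 and −0.35. Their summed CPM ranged from 5966 to 7148 for astrocytes and from 355 to 516 for microglia in 3xTg-S mice. The part of these cell types and of the reads outside genes in the result was not tested.

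In WT-D vs WT-S, the inhibitor in WT mice, none of the 9 genes was called by edgeR's test, 1 had an unadjusted p under 0.05, and DESeq2 likewise called none. Over all genes 0.188% were called and 2.25% had an unadjusted p under 0.05. Replicate numbers were taken to pair mice in this comparison, as described below. The log2 fold changes and p-values of this paragraph come from the fit without that pairing. Mag had the smallest p, with a log2 fold change of −0.29 (SE 0.13, p 0.048, adjusted p 1.00). Cldn11 was at −0.24 (SE 0.13, p 0.107), Opalin at −0.18 (SE 0.27, p 0.513) and Cnp at −0.13 (SE 0.15, p 0.395). Ermn, Ugt8a, Mog and Mbp lay between −0.10 and −0.05, and Mobp was at 0.06 (SE 0.14, p 0.707). The 95% interval for Mbp was −0.31 to 0.22, and that for Mog −0.44 to 0.29. WT-S mouse 4 had the lowest value of its group for 7 of the 9 genes and the lowest of all 16 mice for Mbp, Mobp, Cnp, Ermn and Cldn11. It also had the highest share of reads outside genes of its group, 13.1% against 8.55% to 10.4%. Mbp, Mobp, Ermn and Mog varied more among WT-S than among WT-D mice, with coefficients of variation of 18.1%, 21.8%, 18.8% and 26.3% against 7.38%, 8.95%, 6.28% and 7.63%.

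None of the 31 other sheath and junction genes was called in WT-D vs WT-S, although 28 had negative log2 fold changes, with a median of −0.10. Without WT-S mouse 4, 20 were negative. With the replicate number as a block, 2 of the 31 were called lower, and still none of the 9 genes, where 0.698% of all genes were called. Of the lipid enzymes 1 was called, Elovl1, which elongates very long fatty acids (−0.38, SE 0.11, p 0.00495, adjusted p 1.00). Myrf was at −0.30 (SE 0.10, p 0.0119), Sox10 at −0.16 (SE 0.12, p 0.199) and Pdgfra at 0.10 (SE 0.09, p 0.259). No gene of the other cell types, of precursors or of newly formed oligodendrocytes was called.

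The effect of the inhibitor on the 9 genes was not shown to differ between genotypes. The interaction, the effect in 3xTg minus that in WT mice on the log2 scale, was negative for all 9, from −0.11 for Cldn11 (SE 0.18, p 0.565) to −0.46 for Opalin (SE 0.49, p 0.355). None was called, and none had an unadjusted p under 0.05, where 0.595% of all genes were called and 4.98% had an unadjusted p under 0.05. DESeq2 called none. Single mice moved these values. Without WT-S mouse 4, Mog (−0.49, p 0.0185), Cnp (−0.44, p 0.0282) and Mobp (−0.46, p 0.0478) had an unadjusted p under 0.05, as did 13.3% of all genes, and Cldn11 was at −0.23. Without 3xTg-S mouse 2, Mobp (−0.54, p 0.0106), Mbp (−0.47, p 0.0161) and Ermn (−0.41, p 0.0375) did, as did 15.4% of all genes. None of the 9 was called without any 1 mouse. With all 16 mice the smallest p was that of Cnp (−0.30, SE 0.20, p 0.153, adjusted p 0.788). For Mag, called lower in 3xTg mice, the interaction was −0.13 with a 95% interval of −0.53 to 0.27. For Mbp it was −0.26, with an interval of −0.72 to 0.19. No gene of the other lists was called either.

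In WT-D vs 3xTg-S, treated 3xTg mice against vehicle-infused WT mice, the transcripts of Mag and Mog, whose proteins lie in the inner and outer layers, were lower in 3xTg-S, and Mbp and Mobp, higher in vehicle-infused 3xTg mice, were not called. Mog fell by 0.51 (SE 0.13, p 0.00244, adjusted p 0.0883), from 49.2 ± 3.76 (SD, n = 4) to 34.9 ± 6.82 CPM. Mag fell by 0.42 (SE 0.10, p 0.00174, adjusted p 0.0721), from 105 ± 13.4 to 78.8 ± 7.13 CPM. Thus 2 of 9 genes were called, both lower, where 3.43% of all genes were called lower and 5.69% in either direction. The same 2 genes were without overlap, where 4.42% of all genes were lower without overlap. Opalin just missed the threshold (−1.07, SE 0.34, p 0.0101, adjusted p 0.176), from 19.7 ± 6.00 to 9.53 ± 4.49 CPM, and Cnp was at −0.33 (SE 0.11, p 0.017). Ermn and Cldn11 were at −0.17 and −0.17 (p 0.264 and 0.178), and Ugt8a at −0.09 (SE 0.16, p 0.562). Mobp was at 0.13 (SE 0.17, p 0.471), with a 95% interval of −0.25 to 0.50.

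Without 3xTg-S mouse 2, 5 of the 9 genes were called lower in WT-D vs 3xTg-S, namely Mog, Mag, Cnp, Ermn and Cldn11, where 4.61% of all genes were called lower. With the replicate number as a block, Mog, Mag and Opalin were called lower, where 3.92% of all genes were. With the choroid plexus score as a covariate none of the 9 was called, Mag being at −0.43 (p 0.0102) and Mog at −0.48 (p 0.0174), where 2.63% of all genes were called lower. The summed CPM of choroid plexus genes was 29.7 to 725 in WT-D and 30.1 to 39.1 in 3xTg-S mice, and Ttr was lower in 3xTg-S (−5.88, SE 1.597, p 0.00409). Its part in the result was not tested. Of 31 other sheath and junction genes, 6 were called lower and none higher in WT-D vs 3xTg-S, with a median of −0.20, and without 3xTg-S mouse 2 this became 14. The smallest p belonged to Ppp1r14a (−0.63, SE 0.14, p 0.00101), Cd82, a tetraspanin (−0.47, SE 0.11, p 0.00106), Gpr37, a receptor of myelinating cells (−0.40, SE 0.10, p 0.00268), and Pllp, plasmolipin (−0.69, SE 0.19, p 0.00366), with adjusted p of 0.0555 to 0.111. All 9 transcription factors were below 0 and 3 were called lower, Olig2 (−0.53, SE 0.14, p 0.00291), Nkx6-2 (−0.66, SE 0.18, p 0.00422) and Myrf (−0.29, SE 0.09, p 0.00688), whereas Sox10 was at −0.32 (SE 0.10, p 0.0118). Of the lipid enzymes 3 were called higher, Cyp51 (0.31, SE 0.07, p 0.00117), Sqle (0.23, SE 0.06, p 0.00257) and Hmgcs1 (0.31, SE 0.08, p 0.00392), all of cholesterol synthesis. Gpr17, a receptor of cells that are starting to differentiate, was the 1 gene of newly formed oligodendrocytes called, at 0.39 (SE 0.11, p 0.0045). Olig2 was the 1 called of the precursor list, on which Pdgfra was at −0.08 (SE 0.10, p 0.418). Itm2a of endothelial cells (−0.40, SE 0.10, p 0.00282) and Pmp22, on the peripheral myelin list (−0.34, SE 0.09, p 0.00336), were the other called genes of other cell types.

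In WT-S vs 3xTg-S, the genotypes under the inhibitor, none of the 9 genes was called by edgeR's test, 1 had an unadjusted p under 0.05, and DESeq2 called none. Over all genes 4.26% were called and 10.7% had an unadjusted p under 0.05. Opalin had the largest difference (−0.88, SE 0.36, p 0.0325, adjusted p 0.395) and Mog the next (−0.43, SE 0.20, p 0.0527, adjusted p 0.475). Mbp was at 0.21 (SE 0.18, p 0.257), with a 95% interval of −0.18 to 0.61 that holds the 0.49 of the vehicle-infused mice. Mobp was at 0.08 (SE 0.21, p 0.721), and Cldn11, Cnp, Mag, Ermn and Ugt8a lay between −0.19 and 0.07. Without WT-S mouse 4, 1 member was called, Mog, which then fell by 0.58 (p 0.00356), where 3.32% of all genes were called lower. With the replicate number as a block, Mog and Opalin were called lower, where 4.18% of all genes were. Of the 31 other sheath and junction genes 2 were called higher, Cntn2 (0.32, SE 0.09, p 0.00533) and Anln (0.43, SE 0.13, p 0.00643), and 1 lower, Ppp1r14a (−0.62, SE 0.17, p 0.00423). Of the lipid enzymes 4 were called higher, Hmgcs1, Fdft1, Sqle and Elovl1, by 0.22 to 0.38, and none lower. Scd1, an SCD gene on that list that is named here after its values were seen, was at −0.33 (SE 0.12, p 0.0198, adjusted p 0.321), and in WT-D vs 3xTg-S it was at −0.30 (SE 0.10, p 0.0152, adjusted p 0.218). Gpr17 was higher (0.42, SE 0.11, p 0.00233). None of the transcription factors or precursor genes was called. Myrf was at 0.02 (SE 0.10, p 0.828), Sox10 at −0.15 (SE 0.12, p 0.231) and Pdgfra at −0.18 (SE 0.09, p 0.0575).

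Across mice, the 9 genes tended to move as a set, and this is given as a description over 16 mice of 4 groups that share library effects. Pearson's r of log2 CPM between pairs of the 9 genes had a median of 0.694 over 36 pairs, with a range of 0.0386 to 0.929. After subtraction of the group means the median was 0.693 and the range 0.294 to 0.953. The mean log2 CPM of the 9 genes was followed most closely over 16 mice by Arsg, a lysosomal sulfatase (r 0.942, Spearman's rho 0.909), Tnfaip6 (0.927, rho 0.850), Tmcc3 (0.919, rho 0.862), Tspan2 (0.904, rho 0.809) and Gatm (0.902, rho 0.868). Other close genes were Gpr37, Aif1l, Car2 and Clic4, with r of 0.873 to 0.898. Without the 2 mice farthest from the median, r of these 9 was 0.715 to 0.878. After subtraction of the group means, genes that followed it closely included Gpr37 (r 0.931), Tspan2 (0.929), Sept4 (0.925), Pde8a (0.924), Tmcc3 (0.921), Tmem88b (0.913), Il33 (0.912), Arsg (0.912) and Tnfaip6 (0.907). Sept4 stood in the table under a date made from its name and was identified by its gene ID.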

How the data were processed

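Bulk RNA sequencing of hippocampus was analysed in 16 mice, 4 per group, grouped by their treatment labels and titles. The authors trimmed reads with Trimmomatic 0.35, aligned them with STAR 2.5.1b to GRCm38 with Gencode annotation, and deposited raw counts per gene without normalization. Use of the molecular identifiers in counting is not given in the sources used here. The table held 55335 genes and 4 alignment summary lines, which were left out of library sizes.

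Counts were analysed in R 4.3.3 with edgeR 4.0.16 (filterByExpr with a minimum count of 10 and a minimum total of 15, TMM, quasi-likelihood test), pairwise as in the study, with the interaction fitted to all 16 mice. The fits were tested on simulated data. Alternatives were DESeq2 1.42.0 (likelihood ratio test), median-ratio size factors, no filter, all 16 mice in 1 fit, the replicate block, the share of reads outside genes or a choroid plexus score (mean log2 CPM of its genes, prior count 2) as covariate, an adjusted p of 0.05, and each mouse left out. Replicate numbers in the titles were taken to pair mice where every same-numbered pair correlated above 0.1 in its deviations from the group means. This held in WT-D vs WT-S only (correlations of 0.114 to 0.340). No 2 libraries of a group agreed within counting noise (chi-square per degree of freedom 3.90 to 47.2). Exon lengths came from Gencode M21.

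All 9 genes were named in every comparison, with listed genes named by smallest p, at most 4 per list, and Myrf, Sox10 and Pdgfra always. Some listed genes enter the counts and are not reported here by name. The genes and lists were chosen with earlier results of these data known, so their directions are not independent evidence. 1 listed factor, Zfp191, was not analysed here.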

Additional observations from a re-analysis of the deposited data

Results flagged for a closer look

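The highest or lowest of 4 mice was set against the spread of its group in 44 groups, 36 of them groups of the 9 genes, and 2 mice stood apart. Chance alone gives about 1 in 20 groups. Cnp in 3xTg-D mouse 1 was at 285 CPM, against 231 to 233 in the other 3xTg-D mice, and the gap was 0.967 of the group's range, past Dixon's limit for 4 values. The choroid plexus score, a mean log2 CPM of 5 genes, was 3.82 in WT-S mouse 1 against 1.11 to 1.32 in the other WT-S mice, a gap of 0.923 of the range.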

How the results depend on the processing

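In WT-D vs 3xTg-D, 1 gene (Mbp) was called with all 16 mice in 1 fit and 4, all higher, with the replicate block (2.83% of all genes higher; adjusted p 0.0596 for Mbp and 0.0468 for Mobp). In 3xTg-D vs 3xTg-S, where 3 were called, the count was 5 without a filter on low counts (1.14% of all genes in either direction). With the replicate block 7 were called, all lower (2.71% of all genes lower). In that fit 1.24% of all genes had an adjusted p of 0.05 or less. The count was 1 with the choroid plexus covariate, 0 at an adjusted p of 0.05 in the reported fit, and 1 to 7 with 1 mouse left out. In WT-S vs 3xTg-S, where none was called, the count was 2 without a filter (3.44% of all genes in either direction). With the replicate block it was 2 (4.18% of all genes lower), Mog and Opalin, both lower, with adjusted p of 0.043 and 0.0314. It was 1 (Mbp, higher) with the share of reads outside genes as covariate, and 0 to 1 with 1 mouse left out. For that covariate, as for all 16 mice in 1 fit, no share of all genes is given. In WT-D vs 3xTg-S, where 2 were called, the count was 4 without a filter (3.99% of all genes in either direction). With the replicate block it was 3 (3.92% of all genes lower), Mog, Mag and Opalin, all lower, with adjusted p of 0.0781, 0.0546 and 0.0195. It was 0 with the choroid plexus covariate, 0 at an adjusted p of 0.05, and 2 to 5 with 1 mouse left out. The cause was not tested, except that the adjusted threshold is stricter by construction.

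Replicate numbers were taken to pair mice only where all 4 same-numbered pairs correlated above 0.1. In the order above, 2, 2, 3 and 3 of 4 pairs did so, and 4, 4, 6 and 7 of 8 mice correlated best with their own number. The mean correlation of same-numbered mice was 0.0414, 0.213, 0.241 and 0.176 in that order, against −0.0104, −0.0655, −0.084 and −0.0584 for other pairs. In WT-D vs WT-S it was 0.217 against −0.0728, with 7 of 8 mice. Whether numbers pair mice outside WT-D vs WT-S was thus not settled. The replicate block also made Scd1 a called gene, lower in the second group, in WT-D vs 3xTg-D (−0.19, p 0.00639, adjusted p 0.143). The same held in WT-S vs 3xTg-S (−0.33, p 0.000185, adjusted p 0.0135) and WT-D vs 3xTg-S (−0.31, p 0.000656, adjusted p 0.0385).

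Log2 fold changes that reversed were uncalled in the reported fits. With the share of reads outside genes as covariate these were Mobp in WT-D vs WT-S (−0.057), Ermn (0.06) and Ugt8a (0.037) in WT-S vs 3xTg-S and Cldn11 in the interaction (0.053). With the choroid plexus covariate they were Ermn (0.053) and Ugt8a (0.14) in WT-S vs 3xTg-S, and with all 16 mice in 1 fit Ugt8a there (0.008135). With 1 mouse left out, Mag ranged from −0.084 to 0.10 in WT-D vs 3xTg-D. In WT-D vs WT-S, Mbp ranged from −0.13 to 0.073, Mog from −0.20 to 0.077, Mobp from −0.040 to 0.19, Opalin from −0.41 to 0.028 and Ermn from −0.18 to 0.023. In WT-S vs 3xTg-S, Mobp ranged from −0.15 to 0.18, Ermn from −0.24 to 0.034, Cldn11 from −0.056 to 0.16 and Ugt8a from −0.085 to 0.12. In WT-D vs 3xTg-S, Mbp ranged from −0.021 to 0.25, Mobp from −0.094 to 0.23 and Ugt8a from −0.20 to 0.031. Of 369 log2 fold changes from the other alternatives, 336 kept direction and side of the threshold.

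With 4 mice per group, the 95% intervals of Cnp, Mag and Cldn11 in WT-D vs WT-S held the log2 fold changes called in 3xTg-D vs 3xTg-S. Those intervals came from the fit without the replicate block, which leaves out the pairing of mice in WT-D vs WT-S. Opalin, at 3.60 to 27.6 CPM, was the least precisely measured of the 9.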
